A study of Mus musculus with 18 samples.

Results

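Nucleotide excision repair cuts bulky lesions out of DNA, among them the intrastrand crosslinks that platinum drugs leave between neighbouring bases. The lesion is found in the whole genome by XPC together with the DDB1-DDB2 complex, or at a stalled RNA polymerase by CSB, the product of Ercc6. The helicases XPB (Ercc3) and XPD (Ercc2) of the transcription factor TFIIH then open the DNA, XPA checks the lesion, and the nucleases ERCC1-XPF (Ercc1, Ercc4) and XPG (Ercc5) cut the strand on either side of it before the gap is filled and sealed. These 10 genes, Xpc, Ddb1, Ddb2, Ercc6, Ercc2, Ercc3, Xpa, Ercc1, Ercc4 and Ercc5, were described here, out of 14201 genes in the mRNA sequencing table and 13161 in the table of RNAome sequencing. They were chosen by name, though with earlier results of these data known. Each was read from the RefSeq coding transcript row with the highest mean level. All 10 passed the filter on low counts in both assays, and each gene was read from the same transcript row in both.

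All groups were embryonic stem (ES) cells of C57BL/6 mice, and all were deficient in HPRT, which salvages purines. They came off feeder cells and spent 1 passage on gelatin before the DNA-crosslinking platinum drug cisplatin, at 2.5 µM, or its vehicle DMSO was added, for a time that the sources used here do not give. RNA from 3 cisplatin and 3 DMSO control samples was sequenced in each assay, so 12 of the 18 libraries of the study were used for the comparisons. The samples are numbered 1 to 3 within each treatment by the order of their codes, with the same number in both assays, and values are listed in that order. A number does not pair a cisplatin with a control sample. mRNA sequencing used a kit that selects poly(A) RNA, while RNAome sequencing used total RNA that was depleted of rRNA, fragmented and ligated to small RNA adapters. The labels do not state whether the 3 samples of a treatment were separate cultures. All p-values therefore speak of the spread among these samples, which may be technical. In bulk RNA, fewer cells of a type and less RNA per cell cannot be told apart.

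The RNAome libraries were much shallower on coding transcripts than the mRNA libraries. Coding transcript rows held 1039973 to 3280224 counts per RNAome library and 11951275 to 18618369 counts per mRNA library, and control 1 had the fewest of the RNAome libraries on these rows. Hprt averaged 1.16 ± 0.08 CPM with cisplatin and 0.96 ± 0.18 CPM in controls in mRNA sequencing (SD of 3 libraries each; CPM, the unit used throughout, is the count scaled to the library's total over tested genes). Cdkn1a, Mdm2 and Ccng1, targets of the damage-activated factor p53, rose in both assays, by 1.14 to 1.31 on the log2 scale. All 8 ES cell markers were in the tables of both assays. Their summed level in mRNA sequencing was 4433 to 4671 CPM with cisplatin and 5150 to 5414 CPM in controls. Of the 8, 6 fell (adjusted p under 0.05 by edgeR), against 19.8% of all tested genes that fell, while Pou5f1 and Dppa5a did not. In RNAome sequencing the sum was 2272 to 2412 CPM with cisplatin and 2663 to 2931 CPM in controls, and none of the 8 passed that threshold. Of 9 feeder fibroblast markers 7 were in the mRNA table, with sums of 43.7 to 81.5 CPM with cisplatin and 50.5 to 71.6 CPM in controls, Dcn and Lum had no row there, and the smallest adjusted p was 0.0656, for Pdgfrb. Trophectoderm markers summed to 109.6 to 123.5 CPM with cisplatin and 71.9 to 107 CPM in controls, without rows for the defining genes Cdx2 and Elf5. Krt18 and Krt19 rose, against 18.4% of all tested genes that rose. Krt19 also rose in RNAome sequencing, where Krt8 and Krt18 did not pass the threshold. In mRNA sequencing Krt8 (adjusted p = 0.0615 by edgeR) and Eomes (log2 fold change 0.01) did not pass it. The 4 of 5 primitive endoderm markers with a row summed to 8.85 to 15.8 CPM with cisplatin and 10.8 to 17.9 CPM in controls. The part of these shifts in the results below was not tested.

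Of the 10 excision repair genes, Ercc5 rose after cisplatin in both assays and Xpc rose in mRNA sequencing. A gene was called when the Benjamini-Hochberg adjusted p of edgeR's quasi-likelihood test, taken over all genes tested in that assay, was under 0.05. In mRNA sequencing 2 of the 10 rose and none fell, against 18.4% of all 13553 tested genes called higher and 19.8% called lower, so the share of the 10 called higher was near that of all genes. At an unadjusted p under 0.05, 4 of the 10 were higher and 1 lower, against 23% of all tested genes higher and 23.2% lower at that threshold. In RNAome sequencing 1 of the 10 rose and none fell, against 1.17% of 9054 tested genes called higher and 1.58% called lower, and the same numbers, 1 and 0, had an unadjusted p under 0.05, against 6.7% of all genes higher and 8.22% lower. DESeq2 called 1 of the 10 in each assay. The median log2 fold change of the 10 was 0.11 in mRNA sequencing, where the median of all genes was 0.01, and 0.08 in RNAome sequencing, where that of all genes was -0.00. The levels of the 10 genes by library show Ercc5 as the gene with the widest separation between the treatments. The share of all tested genes whose groups lie apart was not counted, so separation of a gene's groups is only described here.

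**Figure D1:**
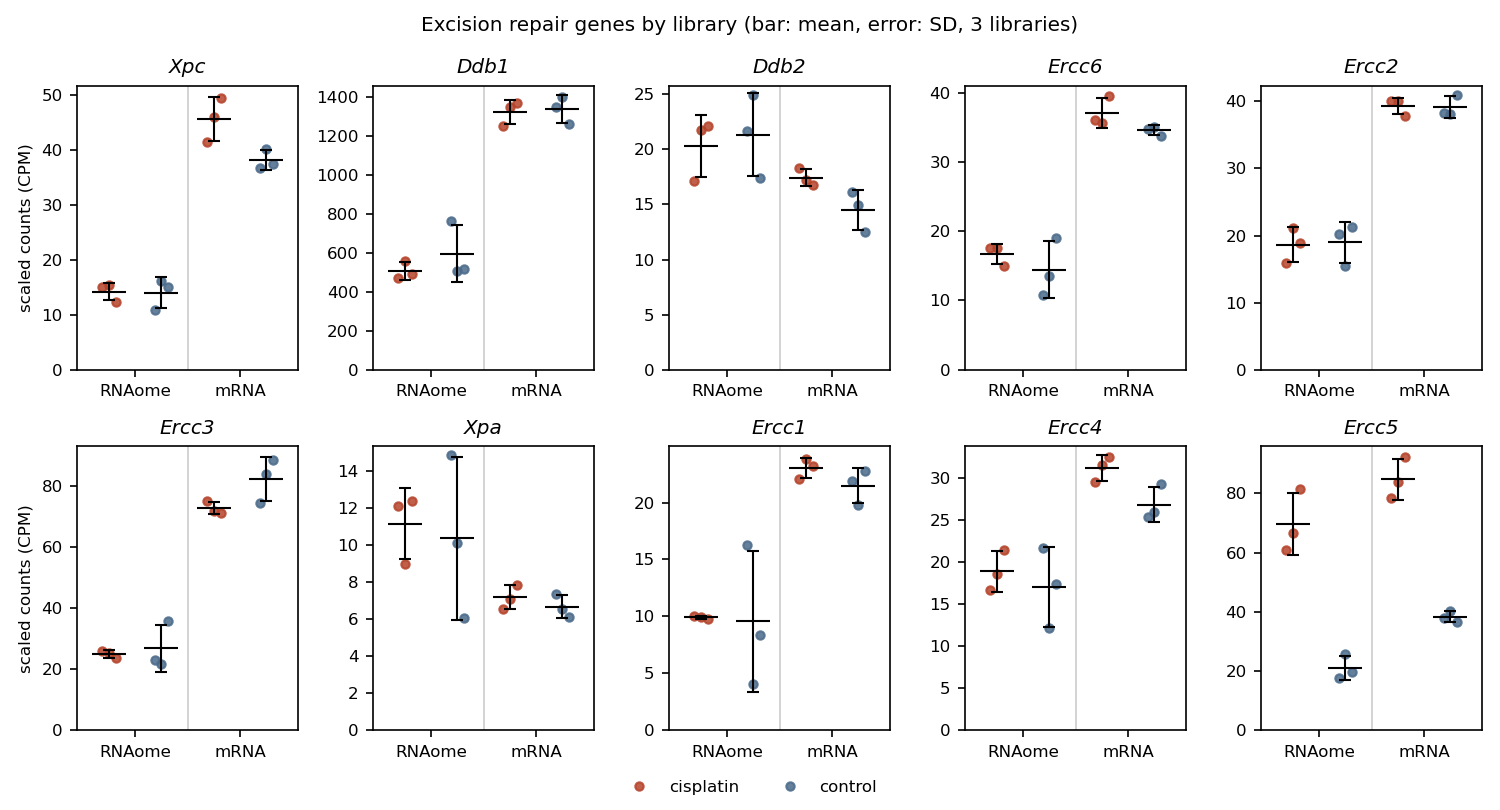
Scaled counts (CPM, linear axis from 0) of the 10 excision repair genes in each RNAome and mRNA library, with cisplatin in red left of control in blue; points are libraries, bars the mean and error bars the SD of 3 libraries. The Ercc5 points of the treatments lie far apart in both assays.

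The finding that stands out is the rise of Ercc5, which encodes XPG, the structure-specific endonuclease that makes the incision on the 3′ side of the lesion and also steadies TFIIH at the damage. Ercc5 (RefSeq NM_011729) lies on chr1:44204589-44238105 of NCBIM37, the assembly also called mm9, on the forward strand. In mRNA sequencing it had 78.5, 83.8 and 92.1 CPM in the 3 cisplatin libraries, against 37.8, 40.4 and 36.7 CPM in the 3 control libraries. The lowest cisplatin library was well above the highest control library. The means were 84.8 ± 6.89 CPM with cisplatin and 38.3 ± 1.90 CPM in controls (n = 3 each, SD), resting on 917 to 1123 counts per cisplatin library and 336 to 562 counts per control library. The log2 fold change was 1.14 ± 0.08 (SE; 95% interval 0.98 to 1.30), or 2.21-fold, with an adjusted p of 1.65e-07 by edgeR's quasi-likelihood test. Ercc5 ranked 34th of 13553 genes by p and 510th by fold change, so that many genes had larger increases.

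RNAome sequencing gave the same direction for Ercc5 on fewer counts. The cisplatin libraries held 60.9, 66.5 and 81.4 CPM (146, 208 and 125 counts), against 17.6, 25.7 and 19.7 CPM (13, 38 and 26 counts) in the control libraries. Again the groups were well apart, and in both assays sample 3 was the highest of the cisplatin libraries. The means were 69.6 ± 10.6 CPM with cisplatin and 21.0 ± 4.18 CPM in controls (n = 3 each, SD). This gave a log2 fold change of 1.68 ± 0.21 (SE; 95% interval 1.24 to 2.12), or 3.20-fold, with an adjusted p of 4.03e-05 by edgeR's quasi-likelihood test. Ercc5 was 20th of 9054 genes by p and 28th by fold change. Without any 1 library the value stayed between 1.57 and 1.86, and between 1.07 and 1.19 in mRNA sequencing, and the call was kept each time.

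The log2 fold change of Ercc5 was larger in RNAome than in mRNA sequencing, by 0.55 ± 0.21 (SE; 95% interval 0.11 to 1.00), in a joint edgeR fit of the 12 libraries. That difference had an unadjusted p of 0.0169 and an adjusted p of 0.673, and was not called. Both assays read the same RNA samples, and with the RNA sample as a replicate block the difference was 0.58 (adjusted p = 0.731 by edgeR). For the other 9 genes the difference between assays, RNAome minus mRNA, ran from -0.32 for Ddb2 to 0.20 for Ercc1, and none had an unadjusted p under 0.05. Over all 12514 genes in this fit 0% were called, with 635 larger and 227 smaller in RNAome sequencing at an unadjusted p under 0.05. With the replicate block 2 genes were called with a larger and 17 with a smaller effect in RNAome sequencing, none of them among the 10.

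**Figure D2:**
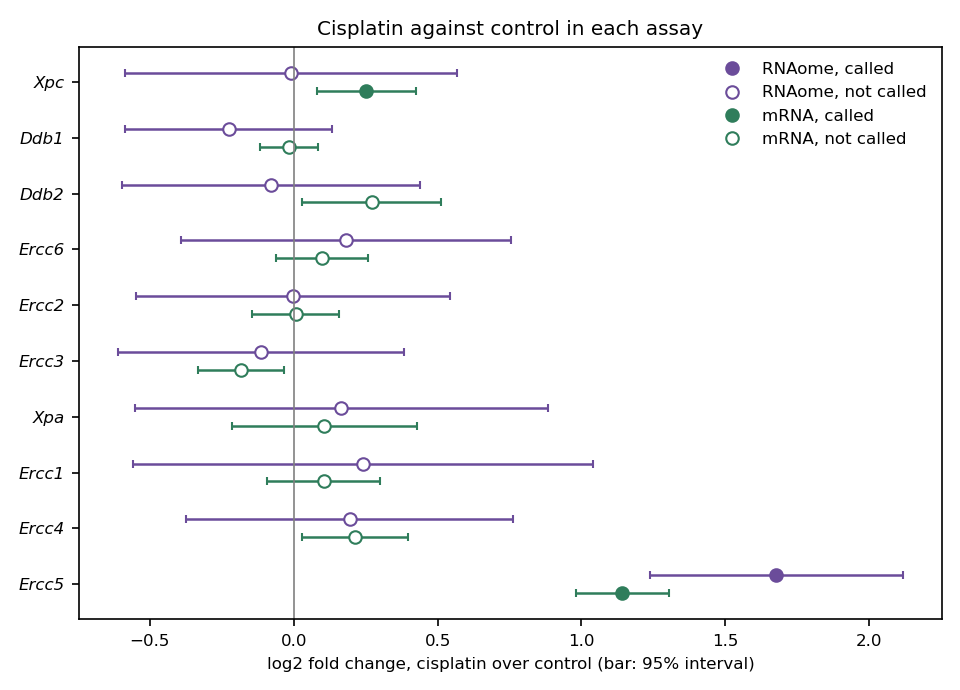
Log2 fold change of cisplatin over control for each gene, RNAome sequencing (purple) above mRNA sequencing (green), with 95% intervals; filled points were called at an adjusted p under 0.05. Ercc5 stands at 1.68 and 1.14, and the other intervals lie between -0.61 and 1.04.

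The long RNA tables also count reads over genomic regions, and those that coincide with an annotated intron of 1 gene gave a second readout of each gene that does not use the transcript row. Introns are removed when the transcript is spliced, so reads there usually come from unspliced or partly spliced RNA. The ends of the first intron of Ercc5 and of the last of its introns in the tables are shown because most of the Ercc5 intron counts of mRNA sequencing fell on the first, and both were counted in both assays. Each stretch runs 30 bases to either side of the exon-intron border on the forward strand of NCBIM37. Capitals mark the GT and AG at which the intron starts and ends.
First intron, donor, chr1:44204966-44205025: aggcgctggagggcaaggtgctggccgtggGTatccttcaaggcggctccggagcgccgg
First intron, acceptor, chr1:44213752-44213811: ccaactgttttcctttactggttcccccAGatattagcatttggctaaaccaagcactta
Last counted intron, donor, chr1:44236047-44236106: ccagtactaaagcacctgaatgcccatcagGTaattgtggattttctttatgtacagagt
Last counted intron, acceptor, chr1:44237346-44237405: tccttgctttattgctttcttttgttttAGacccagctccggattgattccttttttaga
Of the 66 intron regions of the 10 genes in either table, 63 start with GT and end with AG, the usual splice site letters.

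Intron counts of Ercc5 rose as its transcript counts did. In mRNA sequencing the first intron (chr1:44204996-44213781, 8786 bp) had 42, 67 and 57 counts in the cisplatin libraries, against 15, 25 and 19 counts in the control libraries. The last counted intron (chr1:44236077-44237375, 1299 bp) had 6, 10 and 6 counts with cisplatin, against 2, 5 and 3 counts in controls. At both ends of the gene every cisplatin library held more counts than any control library. Summed and scaled to intron counts (CPM of all intron counts), Ercc5 had 28.8 ± 7.16 CPM with cisplatin and 10.7 ± 0.92 CPM in controls (n = 3 each, SD). The log2 fold change of its introns was 1.40 ± 0.21 (SE; 95% interval 0.96 to 1.83), with an adjusted p of 2.01e-05 by edgeR's quasi-likelihood test over all genes with intron counts. It was the 1 called among the 9 excision repair genes tested on introns, against 7.22% of 8397 genes called higher and 5.93% called lower. The call held without each library in turn.

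In RNAome sequencing 6 introns of Ercc5 were counted, with 25, 33 and 18 counts in all in the cisplatin libraries against 1, 11 and 4 in the control libraries. The groups did not overlap after scaling to intron counts either. The first intron alone held 12, 18 and 9 counts with cisplatin, against 0, 6 and 3 counts in controls. Summed over the introns, the log2 fold change was 1.31 ± 0.40 (SE; 95% interval 0.50 to 2.13), and at these counts it was not called (adjusted p = 0.112 by edgeR). Without 1 library it ran from 1.02 to 2.15. None of the 5 excision repair genes tested on RNAome introns was called, against 0.677% of 5910 genes called higher and 0.338% called lower, and 1 of the 5, Ercc5, had an unadjusted p under 0.05, against 6.53% of genes higher and 5.63% lower.

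**Figure D3:**
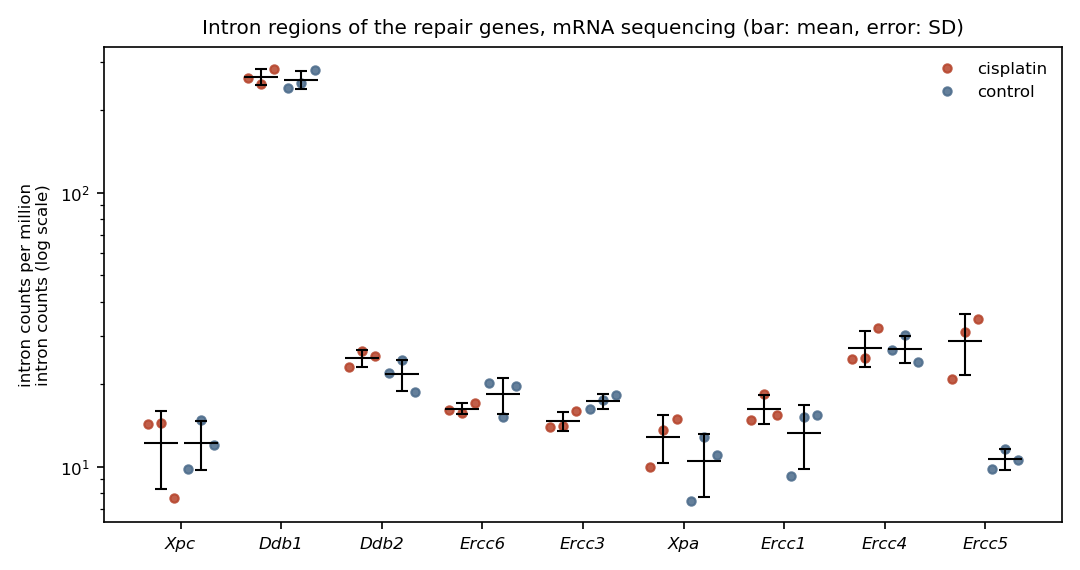
Scaled intron counts (CPM of all intron counts, log axis) in mRNA sequencing for the 9 excision repair genes with testable introns, cisplatin (red) left of control (blue); points are libraries, bars the mean and error bars the SD. The Ercc5 libraries lie at 20.9 to 34.7 with cisplatin and 9.82 to 11.6 in controls.

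The introns of the other excision repair genes were not called in either assay. Ddb1 had by far the most intron counts, 514 to 618 per cisplatin library and 418 to 649 per control library of mRNA sequencing, with a log2 fold change of 0.04 ± 0.09 (SE). Its interval of -0.14 to 0.21 was the narrowest of the 9. For Xpc, the other gene that rose in mRNA sequencing, the introns gave 0.00 ± 0.25 on 14 to 38 counts per library, an interval of -0.50 to 0.51 that includes the rise of its transcript. Ercc3 introns had 13.9 to 15.99 CPM with cisplatin and 16.2 to 18.3 CPM in controls, and a log2 fold change of -0.25 ± 0.20 that was not called. Ercc2 had no region that belonged to 1 gene alone.

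Of the genes of damage recognition in the whole genome, Xpc was the one called in mRNA sequencing. Xpc (NM_009531, chr6:91439299-91465878, reverse strand), whose protein senses the distorted helix and starts the repair, had 41.5, 46.1 and 49.5 CPM in the cisplatin libraries of mRNA sequencing, against 36.8, 40.3 and 37.5 CPM in the control libraries. The groups did not overlap, but the gap between the nearest libraries was small. The means were 45.7 ± 4.06 CPM with cisplatin and 38.2 ± 1.81 CPM in controls (n = 3 each, SD), and the log2 fold change was 0.25 ± 0.08 (SE; 95% interval 0.08 to 0.42; adjusted p = 0.0222 by edgeR). This call was lost with DESeq2 (adjusted p = 0.0582) and without cisplatin 2 (edgeR adjusted p = 0.0806), cisplatin 3 (0.122) or control 1 (0.0799). In RNAome sequencing Xpc had 12.4 to 15.4 CPM with cisplatin and 10.8 to 16.2 CPM in controls, with a log2 fold change of -0.01 ± 0.28 (SE) and an interval of -0.59 to 0.57 that includes the value of mRNA sequencing. The difference between the assays, RNAome minus mRNA, was -0.23 ± 0.26 (SE; 95% interval -0.76 to 0.31) and was not called.

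Ddb2 (NM_028119, chr2:91051729-91077139, reverse strand) encodes the subunit that binds ultraviolet lesions directly and is a known p53 target in human cells. It had 18.3, 17.2 and 16.8 CPM in the cisplatin libraries of mRNA sequencing, against 16.1, 15.0 and 12.5 CPM in the control libraries. The groups did not overlap, and the log2 fold change of 0.27 ± 0.11 (SE; 95% interval 0.03 to 0.51) was as large as that of Xpc but was not called (adjusted p = 0.0743 by edgeR). In RNAome sequencing Ddb2 had 17.1 to 22.2 CPM with cisplatin and 17.4 to 24.97 CPM in controls, with a log2 fold change of -0.08 ± 0.25 (SE).

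Ddb1 (NM_015735, chr19:10680058-10704306, forward strand), the adaptor that joins DDB2 to the CUL4 ubiquitin ligase and serves many other ligase complexes, was the most abundant of the 10. In mRNA sequencing it had 1251, 1347 and 1366 CPM with cisplatin, against 1348, 1401 and 1260 CPM in controls. The libraries of the treatments were interleaved. Its log2 fold change was -0.02 ± 0.05 (SE), and the interval of -0.12 to 0.09 was the narrowest of all 10 genes. In RNAome sequencing Ddb1 had 469.9, 559.7 and 490.6 CPM with cisplatin, against 764, 506.2 and 517.8 CPM in controls. Control 1, the library with the fewest coding transcript counts, was the high one, and the log2 fold change of -0.23 ± 0.17 (SE) was not called. Without that library it was -0.02.

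Ercc6 (NM_001081221, chr14:33326707-33394175, forward strand) encodes CSB, the remodelling factor that starts repair where RNA polymerase is blocked. It had 36.0, 35.6 and 39.5 CPM in the cisplatin libraries of mRNA sequencing, against 34.8, 35.1 and 33.7 CPM in the control libraries. The groups lay side by side without overlap, at a log2 fold change of 0.10 ± 0.07 (SE; adjusted p = 0.325 by edgeR). In RNAome sequencing it had 15.0 to 17.6 CPM with cisplatin and 10.8 to 19.0 CPM in controls, and the log2 fold change was 0.18 ± 0.28 (SE).

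Of the TFIIH helicase genes, Ercc3 had the lowest log2 fold change of the 10 in mRNA sequencing and Ercc2 the one nearest to 0. Ercc3 (NM_133658, chr18:32399954-32429805, forward strand), whose product XPB works in opening the DNA for repair and for transcription, had 74.8, 71.6 and 71.1 CPM with cisplatin, against 74.2, 83.7 and 88.4 CPM in controls. Control 1 lay within the cisplatin range and the other controls lay above it. Its log2 fold change was -0.18 ± 0.07 (SE; 95% interval -0.33 to -0.03; adjusted p = 0.0526 by edgeR), just short of the threshold. It passed with another scaling (RLE, adjusted p = 0.0462), without the low-count filter (0.043), in the abundance table (0.0451), and without cisplatin 1 (0.0437) or control 1 (0.0161). In RNAome sequencing Ercc3 had 23.5 to 25.9 CPM with cisplatin and 21.6 to 35.6 CPM in controls, with a log2 fold change of -0.11 ± 0.24 (SE).

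Ercc2 (NM_007949, chr7:19967359-19981043, forward strand), encoding XPD, the helicase that tracks along the strand to the lesion, had 40.1, 40.0 and 37.9 CPM with cisplatin, against 38.3, 38.2 and 41.0 CPM in controls of mRNA sequencing. The libraries were interleaved, and the interval of the log2 fold change ran from -0.15 to 0.16. In RNAome sequencing the interval was wider, -0.55 to 0.54, around levels of 15.9 to 21.1 CPM with cisplatin and 15.5 to 21.2 CPM in controls. The sign of the Ercc2 value turned with the processing in both assays.

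Xpa (NM_011728, chr4:46168219-46209183, reverse strand) encodes the scaffold that checks the lesion and places the nucleases, and it was the least counted of the 10 in mRNA sequencing. It had 6.55, 7.09 and 7.84 CPM with cisplatin, against 7.32, 6.54 and 6.13 CPM in controls. The libraries were interleaved, and the log2 fold change was 0.11 ± 0.15 (SE; 95% interval -0.21 to 0.43). In RNAome sequencing Xpa rested on 19 to 29 counts per cisplatin library and 8 to 15 per control library, and its log2 fold change of 0.17 ± 0.35 (SE) has an interval of -0.55 to 0.88.

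The other nuclease of the pathway, ERCC1-XPF, cuts on the 5′ side of the lesion and also acts in the repair of crosslinks between the strands. Ercc4 (NM_015769, chr16:13109777-13150710, forward strand), which encodes the catalytic subunit XPF, had 29.5, 31.6 and 32.6 CPM in the cisplatin libraries of mRNA sequencing, against 25.3, 26.0 and 29.3 CPM in the control libraries. The groups were apart, by little at control 3. The log2 fold change was 0.21 ± 0.09 (SE; 95% interval 0.03 to 0.40; adjusted p = 0.0646 by edgeR), and without control 3 it was 0.28 and called (adjusted p = 0.0176). Ercc1 (NM_007948, chr7:19930127-19941873, forward strand), the partner that binds DNA and stabilises XPF, had 22.0, 23.8 and 23.2 CPM with cisplatin, against 21.9, 19.8 and 22.8 CPM in controls. These overlapped, and the log2 fold change was 0.10 ± 0.09 (SE). Neither was called in RNAome sequencing, where Ercc4 had 16.7 to 21.5 CPM with cisplatin and 12.2 to 21.6 CPM in controls and a log2 fold change of 0.19 ± 0.27 (SE). Ercc1 had 9.77 to 10.01 CPM with cisplatin and 4.05 to 16.2 CPM in controls there, on 6 to 12 counts per control library, and a log2 fold change of 0.24 ± 0.39 (SE). A further transcript row of Ercc1 was not tested. It held 179 to 249 counts per cisplatin library and 150 to 216 per control library in mRNA sequencing. In RNAome sequencing it held 12 to 28 and 4 to 11 counts.

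Reads of Ddb2, Ercc2, Xpa and Ercc1 are less certain than those of the other genes, since exons of these 4 overlap exons of genes on the opposite strand (Acp2, Klc3, Ncbp1 and Cd3eap). The sources used here do not say whether the authors' counting used strand. Ercc5, Xpc, Ddb1, Ercc6, Ercc3 and Ercc4 have no such overlap in GENCODE vM1.

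Per length of the longest annotated coding transcript, Ercc5 stood higher in the order of the 10 genes with cisplatin than in controls. In cisplatin libraries of mRNA sequencing the levels per kb were 313 ± 14.6 CPM for Ddb1, 26.8 ± 0.73 for Ercc3 and 21.2 ± 1.72 for Ercc5, which followed these in rank (SD, n = 3). In controls Ddb1 had 317 ± 16.9 CPM per kb, Ercc3 30.3 ± 2.66, Ercc1 15.6 ± 1.13, Ercc2 10.9 ± 0.45, Xpc 10.5 ± 0.50 and Ercc5 9.55 ± 0.47, which came sixth. Libraries of Ercc2 and Xpc overlapped in controls, and those of Xpc and Ercc5 were barely apart. Below them in controls came Ddb2 at 6.52 ± 0.82, Xpa at 5.37 ± 0.49, Ercc4 at 5.24 ± 0.41 and Ercc6 at 4.10 ± 0.09 CPM per kb, and Xpa overlapped with both Ddb2 and Ercc4. In RNAome sequencing Ercc5 was second, at 17.4 ± 2.64 CPM per kb, with cisplatin and seventh, at 5.23 ± 1.04, in controls. Below Ddb1 and Ercc5 most neighbours in the RNAome order overlapped. These levels assume that the longest transcript is the one expressed.

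**Figure D4:**
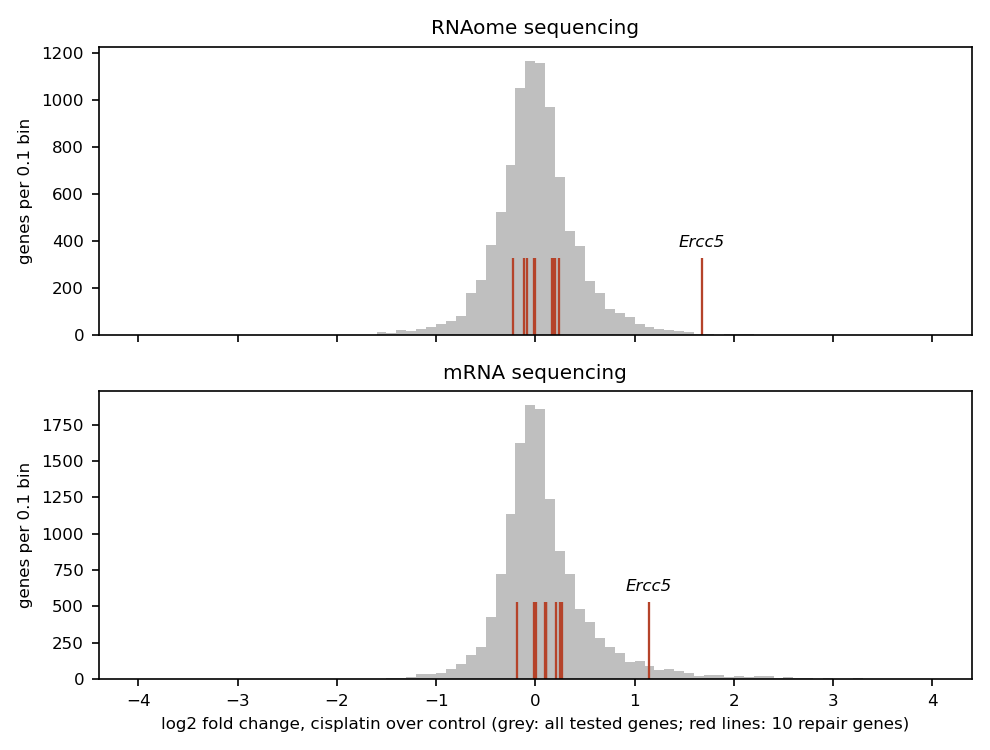
Histograms of the log2 fold change of cisplatin over control for all tested genes (grey, bins of 0.1), RNAome sequencing above mRNA sequencing, with the 10 excision repair genes as red lines. Of these lines only the one of Ercc5, at 1.68 and 1.14, lies away from the centre.

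The other genes of the pathway were read from a list of 40, and in mRNA sequencing 6 of them rose and 10 fell, against 18.4% of all tested genes called higher and 19.8% called lower, shares that the list lay near. Their median log2 fold change was -0.05, against 0.01 for all genes. At an unadjusted p under 0.05, 6 of the 40 were higher and 14 lower, against 23% of all genes higher and 23.2% lower. At that threshold the share of the list that was lower exceeded that of all genes. Of the partners in recognition, Rad23b fell to 388.9 ± 16.2 CPM with cisplatin against 508.1 ± 17.7 CPM in controls, a log2 fold change of -0.39 ± 0.05 (SE), while Cetn2 was not called. Rad23b encodes a protein that binds and stabilises XPC. The cullins of the DDB1 ligase went opposite ways. Cul4a rose to 69.9 ± 3.54 CPM with cisplatin against 57.9 ± 2.07 CPM in controls (log2 fold change 0.27 ± 0.07), while its paralog Cul4b fell to 410.1 ± 5.94 CPM with cisplatin against 524.9 ± 18.6 CPM in controls (-0.36 ± 0.04), and Rbx1 was not called. Among 5 genes of transcription-coupled repair, Uvssa, which brings the deubiquitinase USP7 to the stalled polymerase, rose by 0.58 ± 0.14 (10.9 ± 0.73 CPM with cisplatin, 7.30 ± 0.94 CPM in controls). Usp7 itself fell by 0.43 ± 0.05 (403.9 ± 17.4 CPM with cisplatin, 542.8 ± 25 CPM in controls), and the other 3, among them the recognition gene Ercc8, were not called.

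Of 8 further TFIIH subunits, Ccnh and Mnat1 fell, by 0.34 ± 0.07 and 0.37 ± 0.07 on the log2 scale, and the other 6 were not called. Ccnh and Mnat1 encode parts of the kinase module that serves transcription and leaves TFIIH during repair. Cdk7, the kinase of that module, had a log2 fold change of -0.14 ± 0.06 that was not called (adjusted p = 0.0743 by edgeR). Of the single-strand binding complex RPA, Rpa1 fell by 0.18 ± 0.04 and the other 2 genes were not called.

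Among the 18 genes of gap filling and ligation 4 rose and 3 fell in mRNA sequencing, again near the 18.4% and 19.8% of all tested genes. Polk, encoding a translesion polymerase that also fills repair gaps, rose to 42.7 ± 1.15 CPM with cisplatin against 20.3 ± 3.53 CPM in controls, a log2 fold change of 1.09 ± 0.10 (SE; adjusted p = 2.93e-06 by edgeR). Pold4, the smallest subunit of polymerase delta, rose to 5.02 ± 0.70 CPM with cisplatin against 2.26 ± 0.29 CPM in controls (1.12 ± 0.20). This rested on 57 to 61 counts per cisplatin library and 19 to 36 per control library. Polk and Pold4, like Ercc5, changed by about 1 on the log2 scale, and every other called gene of the list changed by less than 0.6. Xrcc1, the ligase scaffold, and Pole3 rose by 0.28 ± 0.06 and 0.28 ± 0.10. Rfc1, of the clamp loader, and Pole4 and Lig3 fell by 0.25 ± 0.05, 0.24 ± 0.07 and 0.18 ± 0.06. Pole3, Pole4 and Lig3 lay near the threshold. The call of Pole3 was lost by DESeq2 (adjusted p = 0.118) and without any library but control 3 (edgeR adjusted p up to 0.14). The call of Lig3 was lost without control 2, cisplatin 2 or cisplatin 3 (0.109 at most), and that of Pole4 without cisplatin 3 (0.0559) or control 3 (0.0505).

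In RNAome sequencing 39 of the 40 were tested, all but Pold4, which had 1 to 8 counts per library. Polk rose and none fell, against 1.17% of all genes called higher and 1.58% called lower. At an unadjusted p under 0.05, 3 were higher and 2 lower, against 6.7% and 8.22% of all genes, and DESeq2 called 1. Polk had 47.2 ± 8.25 CPM with cisplatin and 22.3 ± 2.36 CPM in controls (n = 3 each, SD). Its log2 fold change was 1.07 ± 0.22 (SE; adjusted p = 0.00648 by edgeR), a call lost without cisplatin 2 (adjusted p = 0.0507) or control 3 (0.0565). Usp7 had a log2 fold change of -0.47 ± 0.16 and Rad23b of -0.21 ± 0.15 there, neither called.

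**Figure D5:**
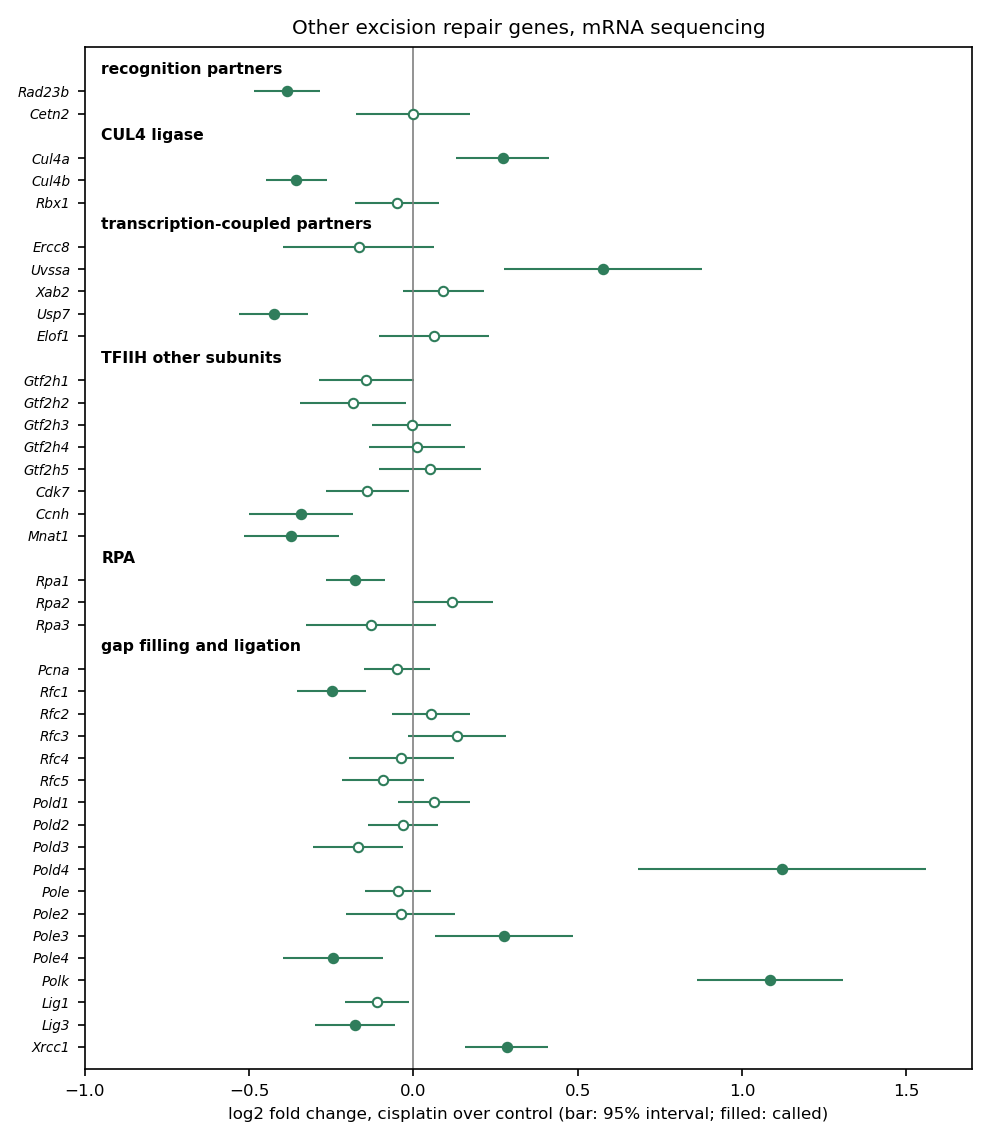
Log2 fold change of cisplatin over control in mRNA sequencing for 39 other excision repair genes, grouped by role, with 95% intervals; filled points were called at an adjusted p under 0.05. Polk and Pold4 lie near 1.1, and the genes that fell lie between -0.18 and -0.43.

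The genes whose levels followed Ercc5 most closely over the 12 libraries were Mapkapk3, Tsnax, Fam83h, Tap1 and Slco4a1. Likeness was Pearson's r of log2 CPM, centred within each assay, among 9045 genes tested in both, and r was 0.991 for Mapkapk3 and Tsnax, 0.985 for Fam83h, 0.985 for Tap1 and 0.984 for Slco4a1. The libraries share their RNA samples and the treatment, so each r is a description. The measure ignores size, and the log2 fold changes in mRNA sequencing were 1.03 ± 0.08 for Mapkapk3, a kinase gene of stress signalling, 0.23 ± 0.06 for Tsnax and 1.38 ± 0.13 for Fam83h. They were 2.59 ± 0.20 for Tap1, which encodes a peptide transporter of antigen presentation, and 1.203 ± 0.13 for Slco4a1, an organic anion transporter gene. In RNAome sequencing they were 1.41 ± 0.21 for Mapkapk3, 0.40 ± 0.18 for Tsnax, 2.13 ± 0.34 for Fam83h, 3.55 ± 0.46 for Tap1 and 1.75 ± 0.48 for Slco4a1 (SE throughout).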

How the data were processed

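The values are raw counts per feature, as the authors deposited them in the long RNA expression tables of mRNA and RNAome sequencing. The submitters' processing notes name Bowtie, TopHat, edgeR and build mm9 without roles or versions. RefSeq coding rows were matched to symbols (17626 of 18163 in mRNA and 16359 of 16852 in RNAome sequencing), and 1 row per symbol, that with the highest mean CPM, was kept. Intron readouts are regions equal to a GENCODE vM1 intron inside the span of 1 gene (27217 and 44912 regions).

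Each assay was fitted on its own with edgeR 4.0.16 in R 4.3.3 (quasi-likelihood test, TMM scaling, filterByExpr, two-sided, Benjamini-Hochberg over all tested features), and the difference between assays with both. The fits were tested on simulated data. CPM are scaled to the library totals over tested features, multiplied by the TMM factors. Alternatives were RLE scaling, DESeq2 1.42.0, no filter, the abundance tables, the row shared by both tables, leaving out libraries, and a replicate block. The labels give both libraries of an RNA sample the same code. Deviations from group means correlated at 0.081 to 0.301 between libraries of 1 code, and each library correlated best with its own code.

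Named were all 10 genes, the called genes of the 40-gene list (1 of which is not reported here), the 5 genes most like the one with the smallest p, and Hprt, Cdkn1a, Mdm2 and Ccng1 as checks. The genes and lists were chosen with earlier results of these data known.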

Additional observations from a re-analysis of the deposited data

How the results depend on the processing

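The calls of Ercc5 in mRNA and RNAome transcripts and in mRNA introns held under every alternative run on them. For its transcript, the abundance tables and the row shared by both tables hold the same Ercc5 counts as the main fit. Those alternatives changed only the other genes and the scaling, so they could say little about Ercc5. DESeq2 called 1 of the 10 genes in mRNA sequencing and 59 genes in all as higher in RNAome sequencing. With the replicate block, 2 genes had a larger and 17 a smaller effect in RNAome sequencing, and no call among the 10 changed. Without 1 library at a time, 1 to 3 of the 10 were called in mRNA sequencing, and 0 to 2 of the 40 other genes in RNAome sequencing. The all-gene counts were then 51 to 113 higher and 69 to 168 lower in RNAome sequencing, 322 to 475 introns lower in mRNA sequencing, 9 to 35 introns higher and 3 to 18 lower in RNAome sequencing, and 0 to 3 larger and 0 to 31 smaller effects between assays. Among the 10, 1 was called without cisplatin 2 or cisplatin 3, and of the 40, 0 without cisplatin 2 or control 3 and 2 without control 1. The all-gene counts moved by over 1.5 times without any 1 of the cisplatin libraries, control 1 or control 3, and between assays without control 1 or control 2. The causes were not tested.

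Signs turned for values near 0. Ercc2 in mRNA sequencing was -0.0070 with DESeq2 and -0.0038 without the filter, and in RNAome sequencing 0.0004 without the filter and 0.0040 in the abundance table. Xpc introns in mRNA sequencing gave -0.0041 with RLE, -0.0085 without the filter and -0.0192 in the abundance table. With RLE the difference between assays was -0.0479 for Ercc2 and -0.0605 for Ercc4. Without 1 library, log2 fold changes in mRNA sequencing ran from -0.0594 to 0.0168 for Ddb1 and -0.016 to 0.0406 for Ercc2. In RNAome sequencing they ran from -0.23 to 0.0822 for Ddb2, -0.20 to 0.69 for Ercc1, -0.16 to 0.11 for Ercc2, -0.29 to 0.17 for Ercc3, -0.0344 to 0.34 for Ercc4, -0.13 to 0.40 for Xpa and -0.12 to 0.0981 for Xpc. For introns they ran from -0.0179 to 0.0951 for Ddb1, -0.13 to 0.0835 for Ercc4 and -0.13 to 0.20 for Xpc in mRNA sequencing, and from -0.0753 to 0.0015 for Ddb1 and -0.17 to 0.32 for Ercc6 in RNAome sequencing. The difference between assays ran from -0.29 to 0.036 for Ddb1, -0.17 to 0.63 for Ercc1, -0.0892 to 0.17 for Ercc2, -0.0858 to 0.35 for Ercc3, -0.16 to 0.21 for Ercc4 and -0.14 to 0.27 for Xpa. The RNAome values were the less precise, with standard errors of 0.17 to 0.39 for the 10 genes against 0.05 to 0.15 in mRNA sequencing. The RNAome libraries also held fewer coding counts, and the part of depth in this was not tested.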

Other observations

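The small RNA table of the RNAome libraries, which was not used in the comparisons, also held rows for transcripts of 4 of the 10 genes. Ddb1 had 39, 26 and 23 counts in the cisplatin libraries, against 61, 32 and 19 counts in the control libraries. These are raw counts, and the libraries differed in their totals over all rows. The totals were 4515956, 2488442 and 2290932 counts with cisplatin and 2478010, 3234388 and 1587446 counts in controls. Ercc5, Ercc4 and Ddb2 had 0 to 2 counts in every library.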
